A study of Mus musculus with 2 samples.

Results

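The regions described here are 2774 places in the genome of dividing mouse dental pulp cells where a short H3K4me3 island lay wholly inside an H3K27me3 island. They were selected on the island positions of both marks: an H3K4me3 island on chromosomes 1 to 19, at most 7.80 kb wide (the last step below 8 kb on the 200 bp grid of the islands), with each of its bases inside a single H3K27me3 island. Of the 13164 H3K4me3 islands that met the chromosome and width limits, 21.1% lay wholly inside H3K27me3 (exact 95% interval 20.4 to 21.8), 1054 overlapped it in part (8.01%) and 9336 did not touch it (70.9%). Over all chromosomes the tracks held 14361 H3K4me3 and 11341 H3K27me3 islands. The overlap and the upper width were therefore set by the selection, and enclosure limits where an island can lie in its host and favours narrow islands and wide hosts. Heights, genes and sequences were not used for it.

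Cells came from the incisor pulp of CD1 mice at postnatal day 5, given a single intraperitoneal dose of 3.3 µg EdU per g body weight 24 h before tissue collection. EdU, a thymidine analogue, is built into DNA during replication, so the sorted EdU-positive cells were those that had copied DNA after the injection, with their later progeny. From these cells 1 H3K4me3 library and 1 H3K27me3 library were analysed, with no input library, so every value below describes that pair of libraries and none has a replicate error or a test. All intervals are exact binomial intervals and cover counting error only. Read depth is unknown from the tracks. Each island has a summit height in the authors' own units, and heights of the 2 marks are on separate scales.

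H3K4me3, trimethylation of lysine 4 of histone H3, marks the start sites of active and poised genes and is concentrated at CpG-rich promoters. H3K27me3, trimethylation of lysine 27, is laid down by Polycomb repressive complex 2 over developmental genes that a cell lineage keeps silent. Promoters with both marks are called bivalent and were first described at developmental regulators in embryonic stem cells. In libraries of sorted but mixed cells, both marks on the same chromosomes and each mark in a different fraction of the cells cannot be told apart.

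The tissue label was checked against marker genes, taken as the presence of H3K4me3 within 1 kb of either end of a gene. Of 22 pulp mesenchyme and odontoblast markers, 19 had an H3K4me3 island; the odontoblast and bone matrix genes Dspp, Dmp1 and Bglap had an island of neither mark. Over all autosomal protein-coding genes, 12343 of 20665 had an H3K4me3 island. H3K4me3 was also found at 12 of 20 epithelial markers, near that share, and at 10 of 14 nerve and glia markers, above it. The 7 of 16 endothelial and 5 of 13 blood cell markers with H3K4me3 were below it. Of the genes with H3K4me3, 10 epithelial, 6 endothelial, 2 blood cell and 9 nerve and glia genes had a short, wholly enclosed island, against 2 of the 19 marked pulp genes. The width and enclosure rules bear on this contrast, as 10 of these 19 pulp genes had H3K4me3 overlapping H3K27me3. In 7 of them the overlap was partial, and in 1 the island was wholly inside but too wide. The part of cells of other types in these islands was not tested.

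The DNA at starts inside the enclosed islands is shown by the promoters of 4 genes from the hosts with most islands, where a host is the H3K27me3 island around them, and by 1 contrasting promoter. Each runs from 250 bases before to 50 after a RefSeq start (GRCm38.p6), 5′ to 3′ on the gene's strand, and capitals mark CpG dinucleotides. Hoxa13 (chr6:52260831-52261130, minus strand) and Hoxd1 (chr2:74762730-74763029, plus strand) encode homeodomain factors that pattern the body axis and limbs. Zic5 (chr14:122465609-122465908, minus strand) encodes a zinc finger factor of neural development, and Sox1 (chr8:12395269-12395568, plus strand) a factor of early neural tissue. Sgms2 (chr3:131491394-131491693, minus strand), a sphingomyelin synthase gene, was picked after the values were seen because its promoter has the fewest CpG dinucleotides among starts in these islands. The Zic5 and Sgms2 stretches reach upstream beyond the edge of their H3K4me3 island, and the others lie wholly inside theirs.
Hoxa13: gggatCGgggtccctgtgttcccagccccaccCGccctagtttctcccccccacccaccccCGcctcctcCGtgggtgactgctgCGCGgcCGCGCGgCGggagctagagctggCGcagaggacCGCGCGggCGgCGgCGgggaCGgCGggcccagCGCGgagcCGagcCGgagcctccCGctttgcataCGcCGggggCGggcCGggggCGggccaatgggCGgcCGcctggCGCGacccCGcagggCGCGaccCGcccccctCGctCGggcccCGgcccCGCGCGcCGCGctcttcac
Hoxd1: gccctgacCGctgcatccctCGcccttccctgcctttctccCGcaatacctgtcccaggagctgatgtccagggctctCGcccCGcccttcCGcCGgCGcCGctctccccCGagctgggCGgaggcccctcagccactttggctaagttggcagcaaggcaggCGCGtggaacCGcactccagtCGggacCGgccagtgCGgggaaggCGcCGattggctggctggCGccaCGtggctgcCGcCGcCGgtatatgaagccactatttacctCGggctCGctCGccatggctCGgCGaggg
Zic5: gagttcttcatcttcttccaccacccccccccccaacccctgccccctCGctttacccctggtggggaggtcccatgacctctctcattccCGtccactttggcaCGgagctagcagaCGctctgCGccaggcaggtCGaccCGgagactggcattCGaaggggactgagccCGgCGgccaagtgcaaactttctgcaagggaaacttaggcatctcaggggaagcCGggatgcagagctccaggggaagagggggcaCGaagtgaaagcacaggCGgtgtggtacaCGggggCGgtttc
Sox1: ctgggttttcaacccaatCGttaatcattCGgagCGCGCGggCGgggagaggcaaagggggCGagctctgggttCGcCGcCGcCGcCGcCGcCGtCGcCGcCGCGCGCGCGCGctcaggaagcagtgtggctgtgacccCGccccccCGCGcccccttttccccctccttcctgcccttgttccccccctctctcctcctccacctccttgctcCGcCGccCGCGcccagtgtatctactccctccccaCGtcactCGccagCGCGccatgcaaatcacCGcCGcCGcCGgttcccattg
Sgms2: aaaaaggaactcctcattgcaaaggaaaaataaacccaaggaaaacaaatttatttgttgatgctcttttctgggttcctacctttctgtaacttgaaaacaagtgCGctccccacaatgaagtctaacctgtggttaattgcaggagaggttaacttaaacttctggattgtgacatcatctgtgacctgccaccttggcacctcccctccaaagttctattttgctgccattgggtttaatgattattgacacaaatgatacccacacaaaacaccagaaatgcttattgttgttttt
The Hoxa13 promoter holds 45 CpG dinucleotides in 300 bases, Sox1 37, Hoxd1 29, Zic5 15 and Sgms2 1. The H3K4me3 heights at these 5 picked starts ran in the reverse order: 12 at Hoxa13, 16 at Sox1, 36 at Hoxd1, 58 at Zic5 and 94 at Sgms2. Their hosts had H3K27me3 heights of 102, 93, 112, 96 and 19 in the same gene order. Over all starts in enclosed islands the median H3K4me3 height was instead highest at 30 or more CpG, as given below. The order of the 5 picked starts is therefore not general.

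Over all 1647 protein-coding starts inside the enclosed islands, the median promoter held 22 CpG dinucleotides per 300 bases. The median was 24 at starts in partly overlapped islands, 22 at starts in islands without H3K27me3, 3 at starts without H3K4me3 and 8 at starts with H3K27me3 alone. CpG count thus gave the same median for H3K4me3 starts inside H3K27me3 and for those away from it. G and C made up a median 65.3% of bases in the enclosed promoters and 62% of those away from H3K27me3, so the ratio of observed to expected CpG was 0.722 inside and 0.798 away. Enclosed starts with 30 or more CpG had a median H3K4me3 height of 64, those with 20 to 29 had 44, those with 10 to 19 had 33, and those with 5 to 9 (168 starts) and 0 to 4 (37 starts) had 36 each.

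Short promoter motifs were searched on both strands of the same 300 bases. The GC box letters GGGCGG, which overlap a CpG, were in 71.0% of enclosed promoters, 67.7% of those in islands without H3K27me3 and 47.0% of all 20085 protein-coding promoters. TATAAA was in 7.47% of enclosed promoters, against 5.62% away from H3K27me3 and 12.7% of all. CCAAT was in 31.5%, 38.4% and 38.1%. Starts on both strands were found in 13.8% of enclosed islands that held any RefSeq start and in 19.8% of islands without H3K27me3.

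The enclosed islands were low in H3K4me3. Their median H3K4me3 summit height was 34 (interquartile range 18 to 62, full range 6 to 201), against 100 in partly overlapped islands and 110 in islands without H3K27me3. Their median width was 2.40 kb (1.80 to 3.40), against 4.20 kb and 3.80 kb, a difference that the selection itself favours. Heights were therefore also set side by side at like width. At 2 to 4 kb the medians were 42 inside, 84 in part overlapped and 104 without H3K27me3, and at 4 to 6 kb they were 70, 109 and 133. Below 2 kb the medians were 22, 30 and 25, with partly overlapped islands the highest. The distributions overlapped: the 75th percentile of enclosed islands, 62, was above the 25th percentile of islands without H3K27me3, 53.

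**Figure D1:**
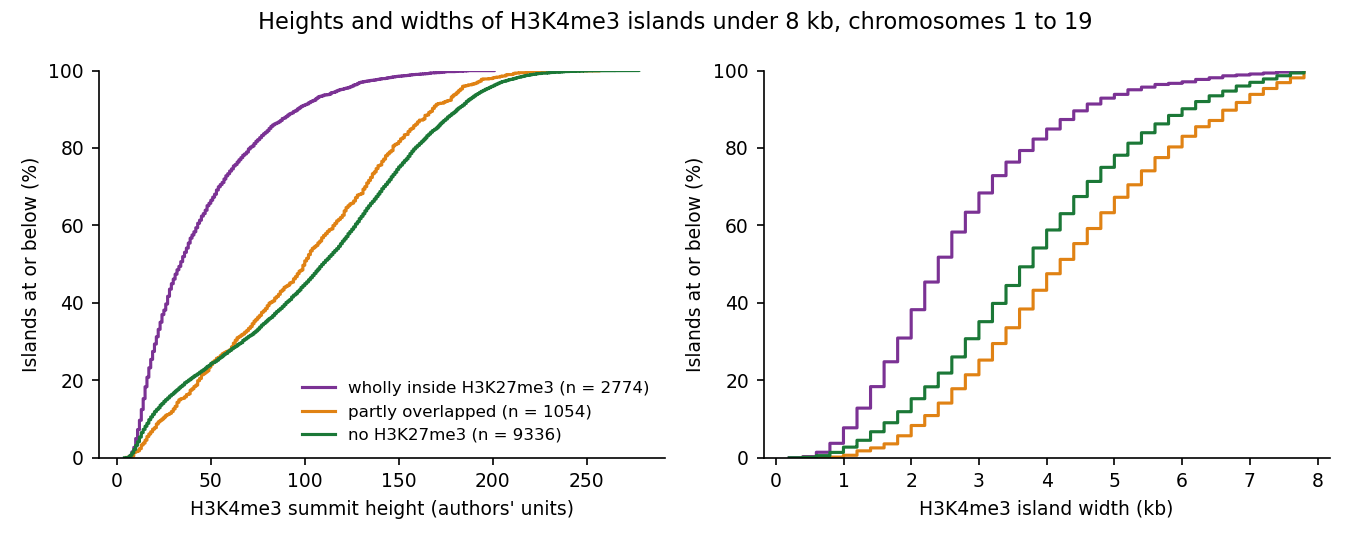
Cumulative share of H3K4me3 islands (vertical axis, percent) by summit height in the authors' units (left) and by width in kb (right), for the 2774 enclosed islands (purple), 1054 partly overlapped islands (orange) and 9336 without H3K27me3 (green). The purple curve lies left of both others over most of each axis, with median heights of 34, 100 and 110.

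The highest H3K4me3 summit was at Ptpn13, a protein tyrosine phosphatase gene, with a height of 201 in an island 4.20 kb wide (chr5:103423401-103427599). Otud1, a deubiquitinase gene, followed at 187, then Sertad4 and Vldlr, a lipoprotein receptor gene, both at 186. Mkrn1 and Neo1, the receptor neogenin, stood at 184, Rab34, a small GTPase needed for cilia, at 181, and Apbb2 at 180. The shared Pawr and Gm40755 island and the Parp12 island had 175 each. These 10 islands lay in weak H3K27me3: their hosts had heights of 7 to 34, and 9 of the 10 hosts were at 24 or below. Sertad4 had 0.2 kb of H3K27me3 beyond the island on one side, and Rab34 had none on one side, whereas Otud1 lay 4.8 and 5.2 kb from the edges of a host 13.0 kb wide.

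At the other end, Tinagl1, a secreted matrix protein gene, had the lowest H3K4me3 height at a gene end, 6. The next height, 7, was shared by 7 islands at gene ends, of which the first 4 by chromosome and position are named: at Prdm12, a zinc finger factor of sensory neurons, at Gnas, the imprinted gene of a G protein subunit, at the nucleotidase gene Nt5c1a and at Npy, which encodes neuropeptide Y. Of these 5 hosts, 4 were high in H3K27me3: 101 at Prdm12, 65 at Npy, 50 at Gnas and 47 at Nt5c1a, while Tinagl1 lay in a host of height 12. The Npy island was 0.999 kb wide inside 31.0 kb of H3K27me3.

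Among the widest enclosed islands, those of 7.80 kb, were Satb1, a chromatin organiser (height 138), the BAF complex gene Dpf1 (64), Vax1, a homeobox gene of the ventral forebrain (63), and Gad1, which makes GABA (52). Of the 6 islands at the next width, 7.60 kb, the 5 highest were at Runx1, a factor of blood and skeletal lineages (109), Ebf3 (107), the Wnt deacylase gene Notum (88), the myosin chaperone gene Unc45b (87) and the Notch ligand gene Dll4 (80), and the other, at Nkx2-3, had a height of 14. At the first width outside the limit, 7 further islands were wholly inside H3K27me3, with heights of 36 to 135 and a median of 94, against 52 to 138 and a median of 64 for the 5 just inside it. In all, 46 wholly enclosed islands were at or over the limit. On the overlap side, 115 enclosed islands had no H3K27me3 to spare on at least one side (median height 57), and 101 partly overlapped islands missed by 1 step of 200 bp (median 53).

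The H3K27me3 islands around enclosed H3K4me3 had higher summits than those without H3K4me3. The 2575 hosts, 24.7% of autosomal H3K27me3 islands, reached a median H3K27me3 height of 31 (17 to 51) over a median 9.60 kb, against 11 and 5.60 kb for H3K27me3 islands that no H3K4me3 touched. A host must be at least as wide as its island, so the selection bears on the widths. Among islands 5 to 10 kb wide the medians were 22 in hosts and 11 in those without H3K4me3. Inside them, the levels of the marks ran weakly against each other: Spearman's rho between the H3K4me3 height of an island and the H3K27me3 height of its host was -0.198 over 2774 islands. These points share 1 library per mark, and some share a host. With the islands divided at the 25th, 50th and 75th percentiles of host height, the median H3K4me3 height was 38 in hosts at 6 to 17, 43 at 18 to 31, 35 at 32 to 51 and 26 at 52 to 119. The width of the enclosed island followed its own height more closely (rho 0.485), while its median width was 2.40 kb in the lower 3 of these groups and 2.60 kb in the highest.

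Limits set after the heights were seen describe how the levels combine, and no expected counts were computed for them. H3K4me3 of 100 or more occurred in 89 islands whose host was at 15 or below, and H3K4me3 of 20 or less occurred in 246 islands whose host was at 60 or above. A further 148 islands were low in both, at 20 or less for H3K4me3 and 15 or below for the host. Examples of low H3K4me3 in high hosts were Wnt1 (H3K4me3 9, host 92), Ihh (10, host 108) and Skor1, a transcriptional corepressor gene of neurons (10, host 114). Another 10 islands were high in both, at 100 or more for H3K4me3 and 60 or more for the host. They were at Zbtb46 (162, host 71), Zswim6 (161, host 62), Zbtb7c (132, host 64), the phosphodiesterase gene Pde10a (128, host 78), Cdkn2a (126, host 73), the activin subunit gene Inhbb (124, host 69), Cabp1 (121, host 62), Ebf3 (107, host 100), Phospho1 with Abi3 (103, host 79), and 1 place with no annotated gene on chr11:119053201-119059199 (118, host 106).

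**Figure D2:**
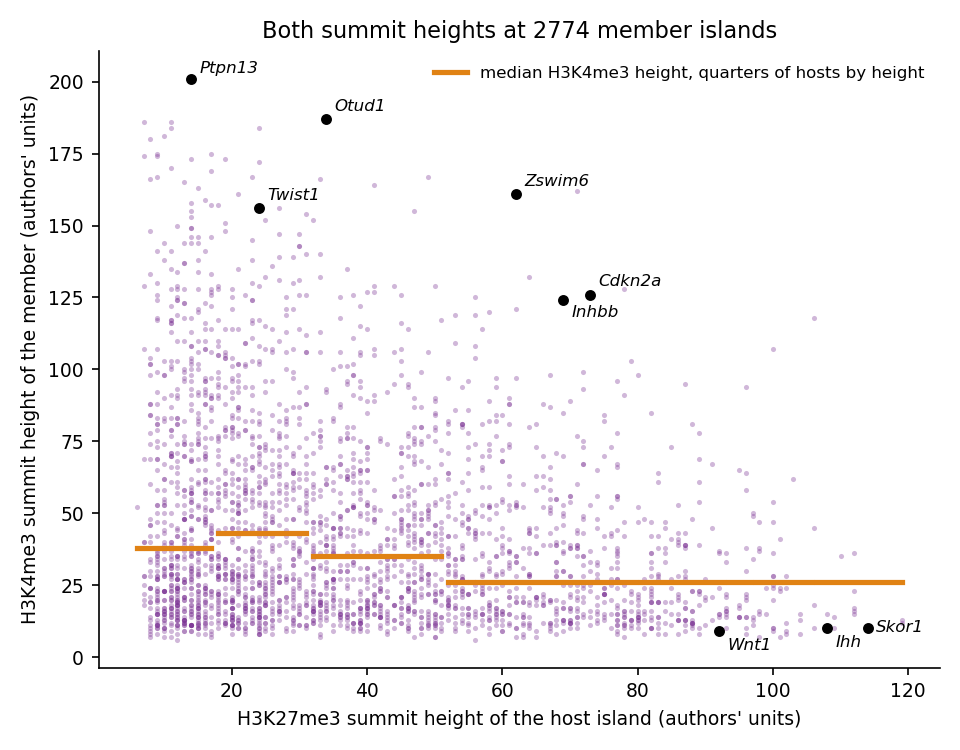
H3K4me3 summit height of each of 2774 enclosed islands (vertical axis) against the H3K27me3 summit height of its host (horizontal axis), each in the authors' units; orange bars are medians of H3K4me3 height in 4 groups divided by host height. The bars stand at 38, 43, 35 and 26, and the upper right holds few points.

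Cdkn2a, which encodes the cell cycle inhibitors p16 and p19Arf, shared its host of 50.8 kb with Cdkn2b, the gene of p15. The island at Cdkn2a was 3.20 kb wide with H3K4me3 at 126 and the one at Cdkn2b 1.60 kb wide at 53. Both genes thus carried H3K4me3 in sorted EdU-positive cells within H3K27me3 of height 73. The Cdkn2a island held a RefSeq start of that gene, and which of its products starts there was not examined.

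Most hosts were wider than their H3K4me3 on both sides. The shorter H3K27me3 flank had a median of 2.40 kb (1.20 to 4.60) and the longer 5.00 kb, and 79.4% of islands had at least 1 kb on each side. The 2 islands with no flank at all were one 0.199 kb wide at Mir6236 and Gm39429 and one in Nrxn3, a synaptic adhesion gene. Islands lay near the middle of their hosts. The centre of an island was a median 0.389 of the host width from the nearest edge, where 0.5 is the exact middle, and where a host held 1 island, 72.5% were centred in the middle 50% of the length free to them. That share was 54.6% in hosts under 5 kb, 71.0% at 5 to 10 kb, 82.3% at 10 to 20 kb and 69.8% in wider hosts.

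The H3K27me3 summit itself fell inside the H3K4me3 island in 1847 of 2409 hosts with 1 island (76.7%), although such islands covered a mean 30.4% of their host. In hosts of 10 to 20 kb the summit was inside the island in 80.2%, with 21.3% of the host covered, and in hosts of 20 kb and over in 62.2%, with 11.0% covered. The summits of the marks were close but seldom in the same place: the median distance was 0.704 kb, 15.2% were less than 0.25 kb apart and 38.6% were 0.25 to 0.75 kb apart.

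The summits of both marks were then placed along the direction of the gene. Over 1305 hosts with 1 island that held the start of a single protein-coding gene, the H3K4me3 summit lay a median 0.191 kb downstream of the start (0.061 to 0.388), and in 78.3% it was within the first 1 kb downstream. Where a gene had several starts in the island, the most upstream was used, which favours downstream positions for both marks. The H3K27me3 summit of the host lay a median 0.56 kb downstream and spread more widely (-0.203 to 1.056). It was further downstream than the H3K4me3 summit in 65.1% of these islands (62.4 to 67.6). H3K4me3 islands without H3K27me3 had nearly the same median summit position, 0.196 kb, but 93.0% of their summits were downstream of the start, against 82.9% of the enclosed ones.

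Over 1425 enclosed islands, a larger set that is not limited to hosts with 1 island, H3K4me3 reached a median 0.900 kb upstream and 1.63 kb downstream of the start. In 77.8% it extended further downstream than upstream, against 87.3% of islands without H3K27me3. The H3K27me3 around it was closer to even: over 1305 hosts with 1 island, its flank was longer downstream in 50.9% and longer upstream in 45.8%.

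**Figure D3:**
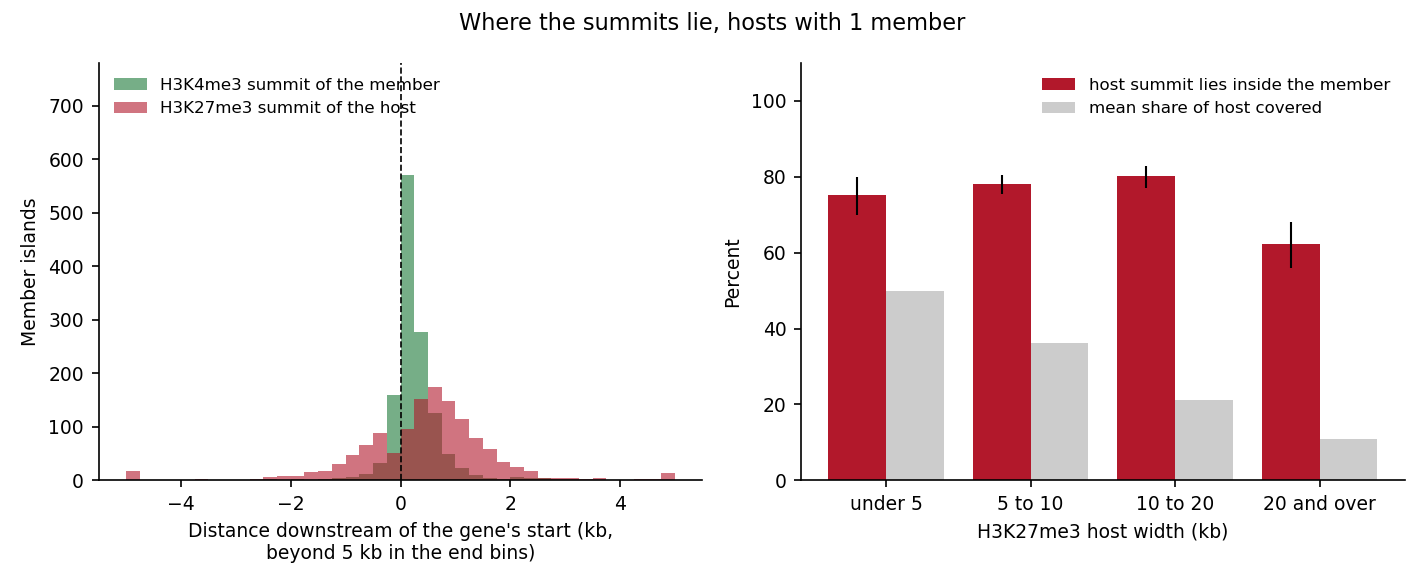
Left, number of islands by distance of the H3K4me3 summit (green) and the host's H3K27me3 summit (red) downstream of the gene's start in kb, for 1305 hosts with 1 island and 1 protein-coding start gene. Right, for 2409 hosts with 1 island by host width in kb, the percent with the H3K27me3 summit inside the island (red, exact 95% interval) beside the mean percent of the host that the island covers (grey): 62.2 against 11.0 in the widest hosts.

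More than 1 enclosed island was found in 166 hosts (6.45%), which held 365 islands (13.2%): 139 hosts had 2, 23 had 3, 2 had 4 and 2 had 5. Hosts with 2 islands were a median 24.8 kb wide and 67 high, against 9.20 kb and 29 for hosts with 1. Host height rose with host width (rho 0.772 over 2774 islands). All hosts of 20 kb and over had a median height of 71, so the greater height of hosts with 2 is not separate from their width. Neighbouring islands of a host were a median 5.00 kb apart. In 80 of the 166 hosts all islands touched the same gene. A protein-coding start lay in 34.3% of islands in these hosts (29.5 to 39.5) and in 57.1% of islands that were alone in their host (55.0 to 59.1). Heights within a host differed: the highest H3K4me3 summit was a median 2.33 times the lowest, at least 2 times in 99 hosts and at least 4 times in 32.

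The hosts with 5 islands were the Hoxa and Hoxd clusters, whose genes are known as classical Polycomb targets. The Hoxa host ran for 193 kb (chr6:52140601-52333399) with an H3K27me3 height of 102. Its H3K4me3 islands included those at Hoxa4 (24), Hoxa7 (8), a place without annotated gene (26) and Hoxa13 (12). The Hoxd host, 141 kb wide (chr2:74639001-74779599) and 112 high, held islands at Evx2 (23), Hoxd13 (17), Hoxd9 (16), Hoxd8 (15) and Hoxd1 (36). Together the islands covered 4.87% of the Hoxa host and 8.25% of the Hoxd host. The widest host of all, 238 kb over the Hoxc cluster, held a single island, at Hoxc6, with a height of 15.

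A host with 4 islands lay over Zic2 and Zic5. In this host, of height 96, the H3K4me3 heights were 21 at Gm5089, 10 at a place with no gene, 58 at Zic5 and 38 at Zic2. Smaller numbers of islands stood in the long hosts of single regulators. The Sox1 host, 133 kb wide and 93 high, held 10 at the noncoding gene Sox1ot and 16 and 21 at Sox1. The Pax2 host, over a kidney and eye factor, held 22 at a place without annotated gene, 10 at the noncoding gene Gm35610 and 19 at a RefSeq start within Pax2, in 70.2 kb.

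Unequal neighbours were clear at several hosts. In the Casz1 host, over a zinc finger gene of heart and vessel development, 3 islands within the gene had heights of 9, 15 and 127. The host of the nuclear receptor gene Nr2f2 held 13 at a place without annotated gene, 22 at an end of Nr2f2 and 84 within it. The host of the related gene Nr2f1 held 66 at its own start, beside 56 within Fam172a and 13 at the noncoding gene A830082K12Rik. Srcin1, a Src signalling inhibitor gene, had 23, 22 and 61, with the highest at a gene end. The largest ratio in a host, 14.2, was at Twist1, a bHLH factor of cranial mesenchyme, with 156 at its start and 11 and 12 at places without annotated gene in the same 23.8 kb of H3K27me3.

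**Figure D4:**
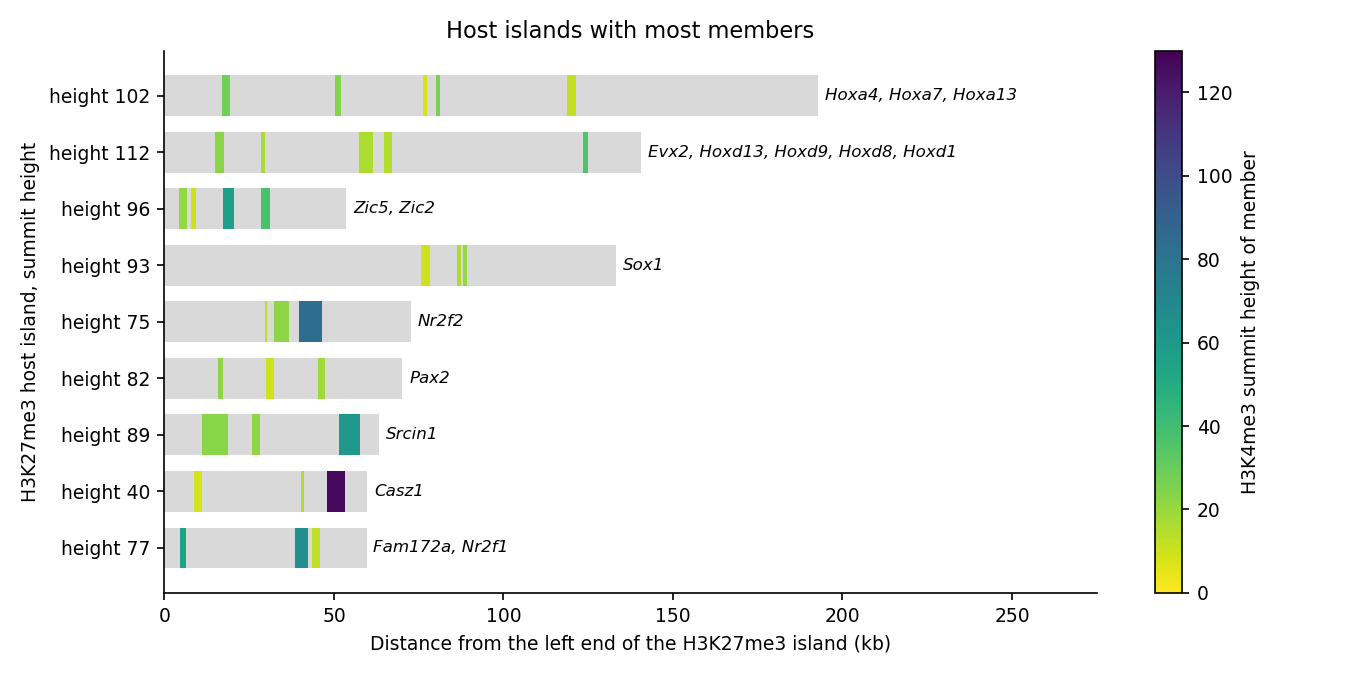
H3K27me3 hosts among the 10 with most enclosed islands, drawn to scale as grey bars from their left end (kb), with H3K4me3 islands coloured by summit height and protein-coding genes at or around some of them named on the right. Heights of H3K27me3 are on the left axis; the island of 127 in the Casz1 host is the darkest.

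Other very wide or high hosts held low H3K4me3. The Mir9-3hg host of 149 kb, over a noncoding host gene of a miR-9 copy, had islands of 18 and 13. The highest host, 119, was at Lmx1b, a LIM homeobox gene of limb and neurons, with H3K4me3 of 13 within the gene and 12 at its end. A host of 109 at Lbx1, a homeobox gene of muscle precursors, had 14, and 10 at a second island without gene. The host of height 110 on chr14:19415601-19419799 differed from these. It was 4.20 kb wide, had no annotated gene, and its island, of height 35, covered 90.5% of it.

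Most enclosed islands lay at gene ends. Of the 2774, 1987 (71.6%, 69.9 to 73.3) lay within 1 kb of an end of a protein-coding gene, 495 (17.8%) elsewhere inside one, 140 (5.05%) at noncoding genes only and 152 (5.48%) at no annotated gene. The share at gene ends was 80.5% for partly overlapped islands and 77.6% for islands without H3K27me3. Either end of the gene is counted there. A protein-coding RefSeq start lay inside 54.0% of enclosed islands, 66.9% of partly overlapped islands and 70.1% of islands without H3K27me3, chromosome 18 left out. Such a start also lay in 179 of the 477 enclosed islands elsewhere inside a gene (37.5%). The places inside genes are therefore not free of starts. Median H3K4me3 heights were 39 at gene ends, 27 inside genes, 18 at noncoding genes and 19.5 at no gene. Away from H3K27me3 the same places had 124, 45, 26 and 17, so at places with no gene the medians of enclosed and free islands were nearly equal. By chromosome, the enclosed share of H3K4me3 islands ran from 16.9% on chromosome 16 to 26.8% on chromosome 19.

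An enclosed island lay within 1 kb of an end of 2086 of 20665 autosomal protein-coding genes (10.1%). A gene list of a family or cell type is set against that share below, with no test, and genes of a list can share an island or a host. Lists of secreted signals came first. Of 19 Wnt ligands, 15 had an enclosed island, with a median H3K4me3 height of 24 and a median host height of 64.5. Heights ran from 8 at Wnt10b to 99 at Wnt11. The first listed had 9 at Wnt1, 24 at Wnt2, 27 at Wnt2b, 13 at Wnt3, 22 at Wnt3a and 65 at Wnt4. For all gene-end islands the medians were 39 for H3K4me3 and 34 for the host, so the enclosed islands of Wnt ligands had lower H3K4me3 in higher H3K27me3. Outside the rule, Wnt5a (170) and Wnt5b (126) had partly overlapped islands. The Wnt7b island (41) was wholly inside but too wide, and Wnt8a had only H3K27me3 within 1 kb of an end.

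Other ligand lists were lower in share. BMP and activin ligands and antagonists had an enclosed island at 12 of 28 genes, among them Bmp6 (77) and Gdf6 (56), FGF ligands at 5 of 20, namely Fgf4 (14), Fgf5 (38), Fgf8 (52 and 14), Fgf9 (63) and Fgf11 (78 and 36), and the hedgehog pathway at 3 of 14. The last were the ligand genes Shh (21 and 8) and Ihh (10) and the co-receptor gene Cdon, at 129 in a host of 41. Receptors and antagonists of Wnt numbered 10 of 32, with the receptors Fzd4 (77) and Fzd9 (90) and the secreted antagonist Sfrp1 (102). Notch pathway genes numbered 6 of 21: Dll3 (32), Dll4 (80), Jag2 (106), Hes3 (11), Hey2 (64) and Heyl (30). The exact intervals of the FGF and hedgehog lists, from 8.66% and 4.66%, reach below the background of 10.1%, and those of the other 4 signalling lists lie above it. These intervals take genes as independent, although some share an island or a host. The lists were chosen with earlier results of these data known, so a position above 10.1% is description and not a test.

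Transcription factor lists come next, with the tooth and jaw factors left for later. At the enclosed islands of these lists, host medians were 60 to 102, above the 34 of all gene-end islands. The H3K4me3 medians were 16 to 38, against 39. Listed genes with overlapping marks but no short enclosed island had medians of 155.5 (8 forkhead), 155 (3 Sox), 152 (4 Irx and related) and 125 (7 Gata and zinc finger genes). Single such genes had 134 in the T-box, 92 in the Nkx and LIM and 11 in the neural bHLH list. Nkx and LIM homeobox genes had enclosed islands at 17 of 26, with median heights of 21 for H3K4me3 and 95 for the host. Nkx2-1, a factor of lung, thyroid and forebrain, had 15 in a host of 99, and Nkx2-3, of spleen and gut, 14 in a host of 96. Hox genes had them at 9 of 39 (medians 16 and 102). The other 30 Hox genes had H3K27me3 but no H3K4me3 island within 1 kb of an annotated end. Islands deeper inside a gene are not counted in any list: the Hoxa4 island also reached into Hoxa3. RefSeq starts of Nkx2-2, Irx2 and Foxa1 lay in enclosed islands of 10, 26 and 13, yet these genes are not among those counted. Neural bHLH factors had them at 21 of 33 (29 and 60), from Atoh1, a factor of hair cells and cerebellum, at 9, to Atoh8 at 124 in a host of 23. Gata and zinc finger factors had 16 of 29 (38 and 82, with H3K4me3 from 7 to 158). The list of further homeobox factors such as Irx, Pax, Otx and Meis had 16 of 33 (24 and 83), Sox factors 8 of 18 (31 and 71.5), forkhead factors 17 of 40 (24 and 75) and T-box factors 6 of 16 (26 and 80). Among them Foxd3, of neural crest, had 13 in a host of 104, and Sox2, of neural and epithelial stem cells, had 12 in a host of 83.

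Genes of electrical signalling had enclosed islands at 41.9 to 52.6% of a list, with host heights nearer the 34 of all gene-end islands. Potassium channels had them at 40 of 76 genes (median H3K4me3 38, host 40.5), neurotransmitter receptors at 42 of 82 (30 and 42), and sodium and calcium channels at 18 of 43 (54 and 40). Kcna3 had 106 in a host of 36 and Kcna4 had 15 in a host of 11. One island of 45 was shared by the neighbouring GABA receptor genes Gabra4 and Gabrb1. Axon guidance genes, at 27 of 69, had median heights of 59 and 32. The guidance ligand gene Slit3 had 170 in a host of 11, and the receptor gene Robo1 had 11 in a host of 31. Cadherins and delta protocadherins had 13 of 40, with neural cadherin Cdh2 at 133 in a host of 8 and epithelial cadherin Cdh1 at 46 in a host of 47.

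Marker lists of other cell types gave 10 of 20 epithelial genes, among them Epcam (58), Krt8 (20), Krt18 (11) and Grhl2 (19). Nerve and glia markers gave 9 of 14, including Erbb3 (48), Tubb3 (27) and Nefl (28). Endothelial markers gave 6 of 16: Kdr (65), Flt1 (15), Erg (35), Sox17 (10), Sox18 (67) and Cldn5 (19). Blood cell markers gave 2 of 13, Tal1 (21) and Ikzf1 (44). Cyclin-dependent kinase inhibitors gave 2 of 7, the Cdkn2a and Cdkn2b genes above, and imprinted genes 7 of 33, among them Grb10 (87), Dlk1 (45) and Phlda2 (21). The exact intervals of the blood cell, kinase inhibitor and imprinted lists, from 1.92%, 3.67% and 8.98%, reach below the background of 10.1%. In the imprinted list 1 silent and 1 active allele, and both marks on each allele, cannot be told apart.

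No enclosed island was found at 40 cytoplasmic ribosomal protein genes, 28 cell cycle and DNA replication genes or 25 germline and tissue-restricted genes. These lists differed in H3K4me3: 33 of 40, 26 of 28 and 5 of 25 genes had an island of that mark. The exact intervals for enclosed islands ran up to 8.81%, 12.3% and 13.7% in the same order. Those of the cell cycle and germline lists include the 10.1% of all protein-coding genes.

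**Figure D5:**
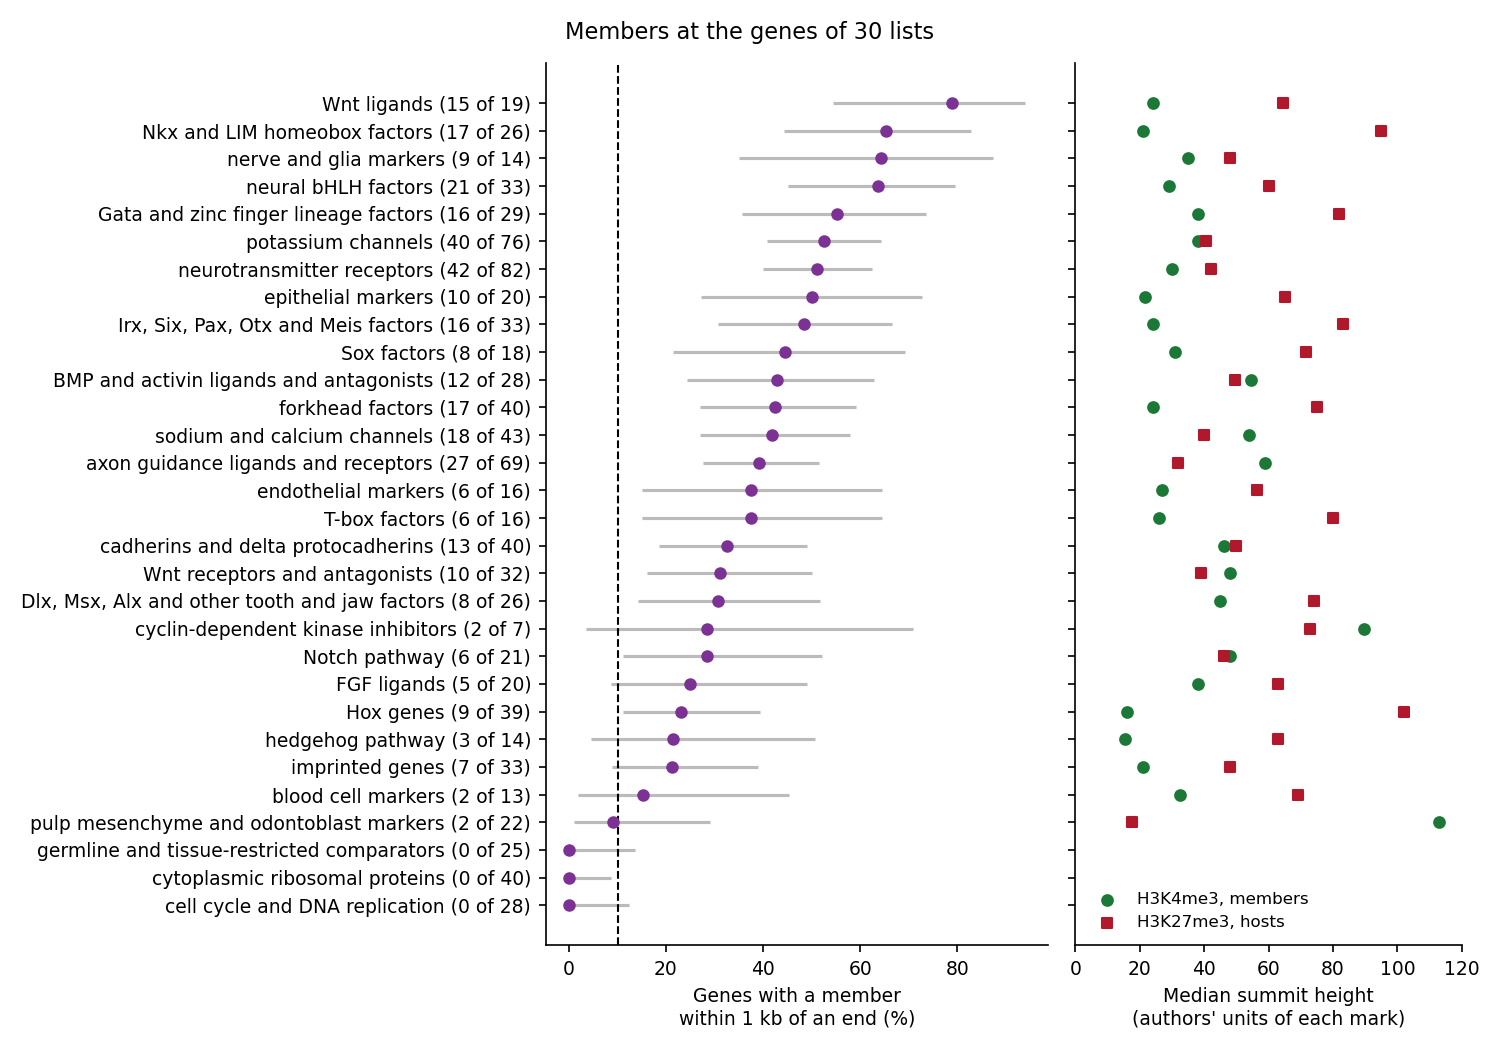
Left, percent of each list's genes with an enclosed island within 1 kb of an end (exact 95% interval), with a dashed line at 10.1%, the share over all protein-coding genes. Right, median summit heights of H3K4me3 in the islands (green circles) and of H3K27me3 in their hosts (red squares), each on its own scale. Host medians are highest for Hox (102) and Nkx and LIM genes (95), whose H3K4me3 medians of 16 and 21 are among the lowest.

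Factors of the tooth and jaw mesenchyme mostly carried H3K4me3 islands too wide to belong here. All 26 listed factors had H3K4me3 overlapping H3K27me3, but only 8 had it as a short, wholly enclosed island, among them Twist1 (156), Hand1 (15), Barx1 (49), Barx2 (45), Pitx1 (7), Pitx3 (70 and 49) and Osr1 (21 and 13). The other 18, among them the Dlx, Msx, Alx and Prrx genes, had H3K4me3 islands over the width limit, up to 28.6 kb (median 13.9 kb), with heights of 101 to 205; neighbours such as Dlx5 and Dlx6 shared 1 island. Of these 18 genes, 7 had their island wholly in H3K27me3, and in 11 it reached beyond. By contrast, 17 of 18 Nkx and LIM genes and 21 of 22 neural bHLH genes with overlapping marks had a short enclosed island, and over all protein-coding genes with overlapping marks the share was 62.7% of 3328. Width and enclosure are the selection itself, so these counts describe it.

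Pulp mesenchyme markers had enclosed islands at 2 of 22 genes, a share of 9.09% that is near the background. These were Twist1 and Alpl, the gene of tissue-nonspecific alkaline phosphatase, whose island was 1.20 kb wide with a height of 70 in a host of 11. A further 8 pulp markers had overlapping marks outside the rule, 6 of them with H3K4me3 islands at or over the width limit.

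Enclosed islands contained 17 of 919 autosomal microRNA hairpins (1.85%). For 4 hairpins, picked after the values were seen to show a pair with a shared seed and hairpins under low and high H3K4me3, a mature RefSeq sequence is shown 5′ to 3′ with the seed, bases 2 to 8, in capitals.
miR-9-5p: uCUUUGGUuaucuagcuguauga
miR-34b-3p: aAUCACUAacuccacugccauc
miR-34c-3p: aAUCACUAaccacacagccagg
miR-193a-3p: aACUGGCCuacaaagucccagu
The Mir9-1 hairpin, whose product is abundant in neural tissue, lay under H3K4me3 of height 13 in a host of 57.0 kb and height 80. Mir34b and Mir34c, known targets of p53, share the seed shown above and lay in a single island of height 48 at Btg4, in a host of height 15. Mir193a lay in an island 1.60 kb wide with a height of 112, in a host of height 31. Their H3K4me3 levels therefore ran from among the low enclosed islands to above the 75th percentile of all enclosed islands.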

How the data were processed

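Reads were aligned with BWA to mm10 and islands called with SICER, per the submitters' processing notes; their versions and settings are not stated in any source consulted. The authors deposited, for each mark, island intervals and summit tracks whose height is a score in units the file headers do not define. It was not rescaled. Island edges fall on a 200 bp grid. No input library was used, per the series' design text. Each height was taken from the summit inside its island. Overlaps, shares (exact Clopper-Pearson 95% intervals) and medians were computed with Python 3.11.15, pandas 2.3.3, numpy 2.4.6 and scipy 1.17.1, and the overlap code was tested on simulated data. Genes came from RefSeq GRCm38.p6, the assembly behind mm10; of 937 listed symbols in 30 lists, 922 were found as autosomal protein-coding genes. RefSeq starts on chromosome 18 were not analysed here. Named islands are the 10 highest, the 10 widest, the 5 lowest at a gene, those of the 10 fullest, 5 widest and 5 highest hosts, those at the rule's limits, and the first listed genes of each list. Further ones are said to be picked after their values were seen or illustrate a stated limit. The islands and lists were chosen with earlier results of these data known. Alternatives changed the overlap, flank, merging, height, width and gene window rules. Some named genes that meet these rules are not reported here.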

Additional observations from a re-analysis of the deposited data

How the results depend on the processing

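The count of 2774 enclosed islands was 2454 to 2885 under 6 of the 7 alternatives tried. It was 329 when only enclosed islands above the median height of all H3K4me3 islands were kept. Such a cut must lower the count, but the size of the fall follows from the low H3K4me3 of enclosed islands. The count therefore rests mostly on islands below that median. The count of 166 hosts with 2 or more islands was 152 to 176. The median H3K4me3 height of 34 was 36 with the highest island of each host and 39 for islands at gene ends. The share at gene ends, 71.6%, was 69.0% with a 0.5 kb window, 76.4% with 2.5 kb and 89.1% for islands anywhere in a gene. The relative distance from the host edge, 0.389, was 0.382 in hosts at least 4 kb wider than their island. The share of protein-coding genes, 10.1%, was 10.9% with 2.5 kb. All 90 alternatives of the list shares stayed inside the main interval, but the intervals of small lists are wide, so this shows little for them. With a 2.5 kb window the kinase inhibitor share went from 28.6% to 57.1%, inside an interval of 3.67 to 71.0%. The hedgehog share went from 21.4% to 35.7% with the same window. No paired analysis was possible because each mark has 1 library. With 1 library per mark, no input and no read depth, the error of any height is unknown.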

Other observations

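Among the 152 enclosed islands at no annotated gene, the 5 highest H3K4me3 summits were 118 on chromosome 11, 86 on chromosome 2, 75 on chromosome 17, 68 on chromosome 12 and 62 on chromosome 16. The island on chromosome 17 filled 92.0% of its host, and that on chromosome 2 filled 20.4%. They were picked after their values were seen.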
